A study of Homo sapiens with 72 samples.

Results

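Long non-coding RNA (lncRNA) genes were compared between 2 related human breast epithelial cell lines after 24 h of TGF-β. MCF10A-M1 (M1) is described in the labels as a normal breast line, and MCF10A-M2 (M2) is the same MCF10A background transformed with HA-Ras and described as pre-malignant. The comparison used 6 of the 72 libraries of the series, 3 of M2 and 3 of M1, all exposed to TGF-β at 5 ng/mL for 24 h after a night without serum. Both lines were otherwise grown with horse serum, EGF, insulin, hydrocortisone and cholera toxin, and the labels name neither the promoter of the Ras construct nor whether M2 is 1 clone. Genes were kept where at least 3 of the 48 M1 and M2 libraries held 0.5 TPM or more, which left 21857 of the 96411 lncRNA genes in the table. TPM is a length-corrected share of each library, here computed over lncRNA genes alone. Of the genes at the edge of this filter, 959 reached that level in exactly 3 libraries (median of their mean levels 0.112 TPM) and 1481 just outside it in exactly 2 (0.0809 TPM). Other groups served as references: the non-stimulated controls at 0 h, and cells given SB431542 at 10 µM for 24 h, each with 3 libraries per line. Each line is a single established line, so a difference between them belongs to these 2 cultures, and Ras cannot be told apart from anything else in which they differ. The identifiers could not be matched to gene symbols, so neither the labelled cell type nor the Ras transgene could be checked against marker genes.

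TGF-β binds a pair of receptor kinases at the cell surface, which phosphorylate SMAD proteins that enter the nucleus and regulate transcription. In normal mammary epithelium the ligand restrains growth. In cells with active Ras signalling it is also known for promoting epithelial-mesenchymal transition, the loss of epithelial contacts and gain of motility. SB431542 is a small molecule that inhibits type I receptor kinases of this pathway, so cells given it also lack signalling from ligand they make themselves. Many lncRNAs are direct or indirect targets of this pathway, and lncRNAs as a class are often restricted to 1 cell type or state.

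The M2 libraries at 24 h held fewer detected lncRNA genes than those of M1. In M1, 14513, 14205 and 15597 genes reached 0.5 TPM, and in M2, 8458, 8645 and 10138 did. The groups did not overlap (means 14772 ± 731 and 9080 ± 921, SD, n = 3 each; two-sided exact permutation p = 0.1, the smallest that 3 against 3 libraries allow). The 10 most abundant genes took 69.0% ± 3.17 of the TPM in M1 and 75.6% ± 0.88 in M2 (SD, n = 3). Under SB431542 at 24 h, M2 also had fewer detected genes than M1 (9310 ± 42.9 against 15664 ± 117, n = 3 each), while at 0 h the gap was smaller (13571 ± 910 against 15876 ± 323). Among the M1 libraries replicate 3 had the most detected genes and a median-of-ratios factor of 1.226, against 0.974 and 0.963 in the other 2. Its 10 most abundant genes held 65.4% of the TPM, against 71.2% and 70.5%. Replicates correlated with r of 0.945 to 0.962 in M1 and 0.970 to 0.972 in M2, and libraries of different lines with r of 0.881 to 0.916, over genes, which are not independent replicates. TPM keeps no record of read number, so the depth of the libraries is unknown, and its part in the number of genes detected was not tested. In these bulk samples fewer cells with an RNA and less RNA per cell cannot be told apart.

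**Figure D1:**
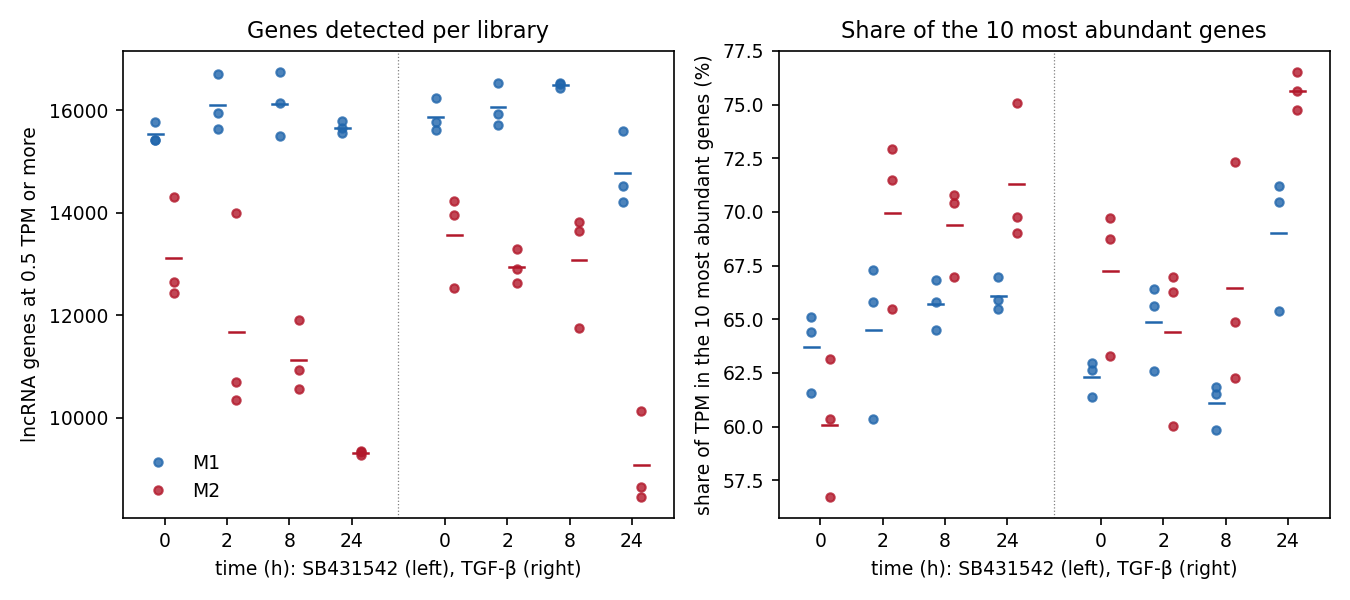
Detected lncRNA genes, those with at least 0.5 TPM (left), and share of TPM held by the 10 most abundant genes in percent (right), per library, for M1 and M2 by arm and time in hours; dots are libraries and bars are means of 3. At 24 h of TGF-β the M2 libraries lie at 8458 to 10138 genes, below the 14205 to 15597 of M1.

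Because so much of each library sits in a few genes, the comparison was made on TPM as deposited and again after median-of-ratios scaling, which sets the typical gene to a common level. As deposited, limma called 581 lncRNA genes higher in M2 than in M1 (2.66% of the genes tested) and 9921 lower (45.4%), together 48%, at a Benjamini-Hochberg adjusted p under 0.05. After median-of-ratios scaling it called 3116 higher (14.3%) and 3897 lower (17.8%), together 32.1%. Over all tested genes the median log2 difference moved from −0.70 to −0.18. Thus the excess of lower genes depended on the scaling, and 683 genes were lower in the first fit and higher in the second. Quantile normalization gave 2650 higher and 2881 lower genes, and TPM rescaled over all but the 10 most abundant genes gave 827 and 7960. The results that follow use the genes called in the same direction under both scalings, 581 higher (2.66%) and 3886 lower (17.8%). All 581 genes higher as deposited stayed higher after scaling, so the second fit removed none of them. Of the 3897 genes lower after scaling, 3886 were already lower as deposited. The excess of lower genes in this set therefore follows in part from the rule. Among these, all 3 M2 libraries lay above all 3 of M1 for 530 of the 581 higher genes. They lay below them for 3804 of the 3886 lower genes, and 57% of all tested genes did not overlap. The same 6 libraries made the calls, so this separation describes the called genes and does not test them.

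**Figure D2:**
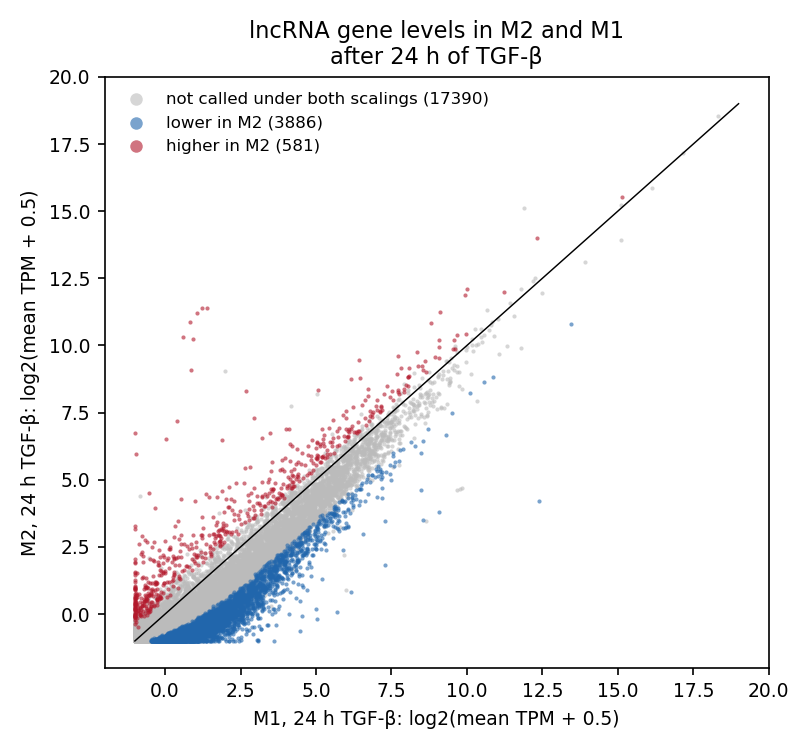
Mean level of each tested lncRNA gene at 24 h of TGF-β in M1 (x axis) and M2 (y axis), both as log2(mean TPM + 0.5); the line marks equal levels. The 3886 genes lower in M2 and the 581 higher genes, called under both scalings, lie on either side of a body of genes that is itself shifted below the line.

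The genes higher in M2 included a few very large differences on a base of modest ones. Their median log2 difference was 1.15 as deposited and 2.21 after scaling. A log2 difference of 1 or more was found for 348 of them, of 2 or more for 91, of 3 or more for 34 and of 5 or more for 13. At 0 h, 230 genes were called higher in M2 by at least 1, 21 by at least 2 and none by 3 or more. The lower genes had a median of −1.70 as deposited and −1.10 after scaling. Of these, 3490 were lower by at least 1, 1083 by at least 2, 86 by at least 3 and 8 by at least 5. All log2 values are differences of log2(TPM + 0.5), which understates differences of genes at low levels.

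NONHSAG063600.1 had the largest difference among higher genes above 0 in all 6 libraries. It stood at 510, 554 and 583 TPM in the M2 libraries (replicates 1, 2 and 3) and at 1.78, 1.58 and 0.593 TPM in those of M1. Separation of the lines in these libraries, and a call under both scalings, were conditions for naming or ranking a gene. The log2 difference was 8.31 (SE 0.34, limma adjusted p 2.4e-21), and 9.52 after scaling (adjusted p 1.64e-23). In M2 the level of NONHSAG063600.1 was 0.635 ± 0.299 TPM at 0 h, 2.02 ± 0.718 at 2 h, 14.9 ± 0.446 at 8 h and 549 ± 36.8 at 24 h of TGF-β (SD, n = 3). It was 7.78 ± 0.916 TPM in M2 after 24 h of SB431542, and each library there lay above those of M2 at 0 h. In M1 it was listed at 0 in all 3 libraries at 0 h and at 2 h, and reached 1.32 ± 0.634 TPM at 24 h. The line difference at 24 h of TGF-β was wider than at 0 h by 7.16 (SE 0.49, limma adjusted p 4.36e-14) and wider than under SB431542 by 4.49 (SE 0.49, adjusted p 2.41e-08). The latter was 3.10 with a pseudocount of 0.1 and then missed the test (adjusted p 0.0683). In MDA-MB-231, a triple-negative breast cancer line of the same series, NONHSAG063600.1 was listed at 0 in all 3 libraries at 24 h of TGF-β.

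NONHSAG107886.1 was chosen as the leading gene whose difference depended on the ligand. In M2 it stood at 23.8, 19.3 and 22.7 TPM at 24 h of TGF-β, and in M1 at 0.349, 0.194 and 0.0146 TPM. The M2 libraries were close to each other, and their separation from M1 was a condition of the choice. Its log2 difference was 5.06 (SE 0.45, limma adjusted p 9.56e-12) and 6.22 after scaling. At 0 h the lines stood at 0.188 ± 0.0735 TPM in M2 and 0.667 ± 0.412 in M1, a difference of −0.70 that missed the threshold (limma adjusted p 0.284). Under SB431542 at 24 h they stood at 0.714 ± 0.548 and 0.196 ± 0.117 TPM (n = 3 each; difference 0.69, limma adjusted p 0.19), which passed after scaling (1.27, adjusted p 0.0288). The difference of 24 h TGF-β exceeded that at 0 h by 5.76 (SE 0.63, limma adjusted p 1.01e-08) and that under SB431542 by 4.37 (SE 0.63, adjusted p 1.15e-05). Calls for both of these were also conditions of the choice. At 8 h of TGF-β NONHSAG107886.1 was 3.46 ± 0.407 TPM in M2 and 1.64 ± 1.05 in M1. The line difference at 8 h was 1.04 as deposited (limma adjusted p 0.0698) and 1.45 after scaling (adjusted p 0.0216). All 3 MDA-MB-231 libraries at 24 h of TGF-β list this gene at 0.

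Further genes higher in M2 are described by rank. The next gene by size of difference stood at 156, 133 and 144 TPM in M2 and 1.04, 0.231 and 1.19 TPM in M1 at 24 h of TGF-β. It was also high in M2 under SB431542 (60.0 ± 5.03 TPM), and its interaction with the inhibitor was 0.44 (limma adjusted p 0.876). The gene ranked 7 stood at 320 ± 39.7 TPM in M2 and 5.90 ± 1.71 in M1, with 16.9 ± 2.57 TPM in M2 under SB431542 and 2.07 ± 0.89 at 0 h (SD, n = 3). Among the genes ranked by their interaction with SB431542, the gene ranked 4 stood at 157 ± 13.9 TPM in M2 and 7.24 ± 2.78 in M1, against 0.84 ± 0.42 and 0.23 ± 0.38 TPM under the inhibitor. In M1 as in M2, every mean of that gene was thus higher with the ligand than with the inhibitor; the interaction was called. The gene ranked 5 was the only one of the 581 that was called in the opposite direction under SB431542. It stood at 20.8 ± 2.03 TPM in M2 and 9.96 ± 2.80 in M1 with TGF-β, and at 0.0679 against 2.43 TPM with the inhibitor.

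Not every large difference was shared by the 3 M2 libraries. The genes ranked 3, 4, 5, 6 and 8 among those higher in M2 owed most of their mean to M2 replicate 2, where they stood at 3783 to 8140 TPM. In M2 replicate 1 they stood at 5.44 to 12.1 TPM and in replicate 3 at 14.6 to 28.4 TPM, and in M1 at 1.01 to 2.23 TPM. The 3 M2 libraries still lay above the M1 libraries, which was a condition of the ranking. Over all 24 M2 libraries these 5 genes ranged from 4.01 to 48956 TPM, with high libraries in several groups, and in M1 they did not exceed 7.04 TPM. Of the 440 higher genes above 0 in all 6 libraries, 8 had a more than 10-fold range among the M2 libraries, with replicate 2 highest in 6 of them. The median range from lowest to highest M2 library was 1.32-fold for the higher genes and 2.28-fold for the 2548 lower genes above 0 in all 6 libraries.

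Among the genes lower in M2, NONHSAG014890.2 had the largest difference. In M1 it stood at 6192, 4407 and 5530 TPM at 24 h of TGF-β, and in M2 at 22.3, 14.1 and 17.6 TPM. The libraries of each line lay close together, and separation of the lines was a condition of the choice. The log2 difference was −8.19 (SE 2.04, limma adjusted p 0.00112) and −6.97 after scaling (adjusted p 0.00873). The SE of NONHSAG014890.2 was wide, and other groups in the fit varied: 4 of the 24 M1 libraries held less than 10 TPM while the others held 874 to 6192 TPM. These low libraries were single replicates, for example 9.36 TPM beside 3539 and 2744 TPM at 0 h. In M2, 23 of 24 libraries held less than 25 TPM and the remaining one, at 0 h, held 657.9 TPM. Under SB431542 at 24 h the difference was −7.81 (limma adjusted p 0.00151), and the interaction with the inhibitor was −0.38 (adjusted p 0.986).

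NONHSAG002713.2 led the lower genes whose difference depended on the ligand. It stood at 27.7, 34.2 and 34.7 TPM in M1 and at 0.457, 0.239 and 0.419 TPM in M2 at 24 h of TGF-β. The log2 difference was −5.23 (SE 0.33, limma adjusted p 1.5e-15) and −4.55 after scaling. In M1 its level was 3.80 ± 1.55 TPM at 0 h, 4.38 ± 1.81 at 2 h, 27.0 ± 1.96 at 8 h and 32.2 ± 3.89 at 24 h of TGF-β (SD, n = 3). Under SB431542 it was 0.421 ± 0.126 TPM at 8 h and 0.173 ± 0.30 at 24 h in M1. In M2 NONHSAG002713.2 stayed under 1 TPM in every library of both arms. The lines therefore differed at 0 h (−2.59, limma adjusted p 3.06e-07) and more so with TGF-β, and under the inhibitor at 24 h the difference was −0.08 (adjusted p 0.865). The interaction was −5.15 (SE 0.47, limma adjusted p 6.44e-10) against SB431542 and −2.64 (SE 0.47, adjusted p 9.3e-05) against 0 h. The second of these was −1.96 with a pseudocount of 0.1 (limma adjusted p 0.155) and −2.15 with TPM rescaled over all but the 10 most abundant genes (adjusted p 0.0748). Calls for both interactions, as deposited and after median-of-ratios scaling, were conditions of the choice. In MDA-MB-231 at 24 h of TGF-β the gene stood at 0.515 ± 0.453 TPM (n = 3).

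**Figure D3:**
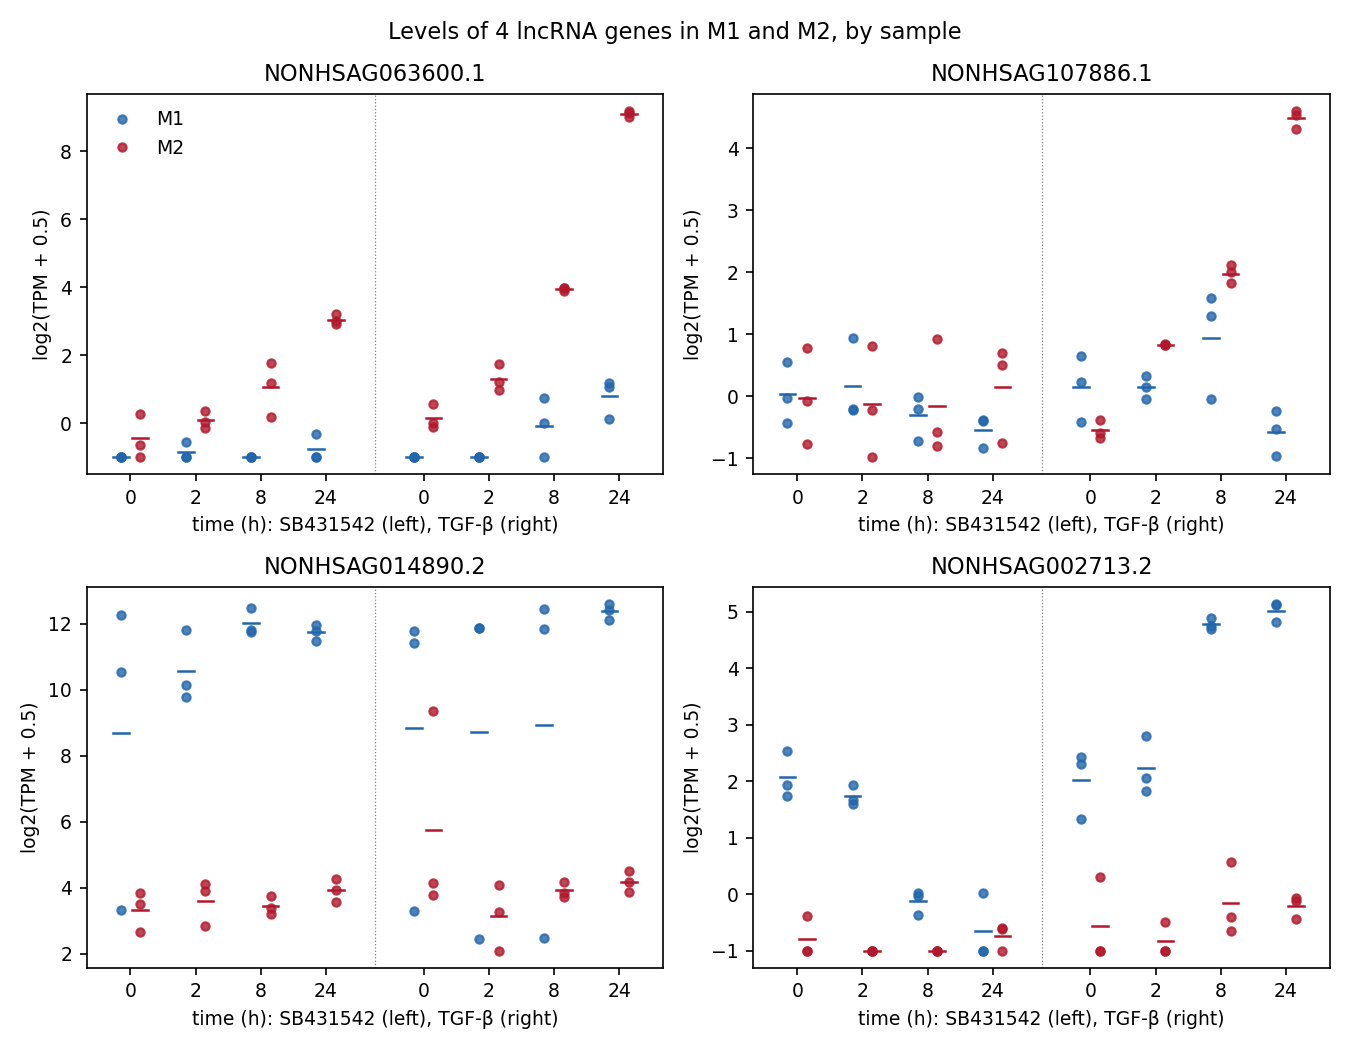
Levels of the 4 genes as log2(TPM + 0.5) in M1 and M2 by arm and time in hours; dots are libraries and bars are means of 3 log2 values. NONHSAG063600.1 and NONHSAG107886.1 are highest in M2 at 24 h of TGF-β, NONHSAG002713.2 is high in M1 at 8 and 24 h of TGF-β, and NONHSAG014890.2 is high in most M1 libraries of every group with single libraries far below.

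Other leading genes were called lower in M2 with TGF-β, at 0 h and with SB431542. The lower gene of rank 3 stood at 155 ± 5.53 TPM in M1 and 3.09 ± 0.461 in M2 with TGF-β, with log2 differences of −5.44 there, −6.63 at 0 h and −4.54 under SB431542. That of rank 4 stood at 71.8 ± 11.4 and 1.27 ± 0.798 TPM, and that of rank 5 at 540 ± 27.4 and 13.3 ± 1.79 TPM (SD, n = 3). Both were also lower at 0 h, by log2 differences of −3.63 and −4.86. Other genes crossed over. Ranked second by the interaction with SB431542 was a gene at 46.7 ± 3.26 TPM in M1 and 12.1 ± 1.37 in M2 with TGF-β. The same gene stood at 54.4 ± 15.4 and 105 ± 24.6 TPM at 0 h, and at 114 ± 3.77 and 230 ± 10.3 TPM with the inhibitor. Its line difference was called lower with TGF-β and higher in the other 2 states (log2 difference −1.91, 0.96 and 1.00).

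Genes listed at 0 in all 3 libraries of a line and at 1 TPM or more in all 3 of the other were counted over the whole table. At 24 h of TGF-β, 14 genes were listed at 0 in M1 and present in M2, and 23 the reverse. At 0 h these counts were 2 and 21, and at 24 h of SB431542 they were 12 and 95. The 14 genes had a median level of 2.42 TPM in M2. The most abundant of them stood at 146, 78.0 and 92.9 TPM in M2 with TGF-β, was listed at 0 in M2 at 0 h and stood at 0.574 TPM there under SB431542. Of the 14, 9 were listed at 0 in M2 too at 0 h, and 6 were at 1 TPM or more in all 3 M2 libraries under SB431542. Over the whole table, 70427 of the 96411 genes were listed at 0 in all 3 M2 libraries at 0 h, and 70830 at 24 h of TGF-β. Most genes of the table are thus listed at 0 in M2 at each of these times, so its share is no reference for 14 genes present at 24 h. Whether TGF-β switched the 14 genes on was not tested. Of the 23, 12 were at 1 TPM or more in all 3 M1 libraries at 0 h and 14 under SB431542. These counts describe the 14 and 23 genes only, with no share of other genes beside them. An entry of 0 in a table without counts can be a failed estimate, and the floor of detection is unknown.

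Of the 10 most abundant lncRNA genes, 5 differed between the lines as deposited, a share near the 48% of all tested genes. The gene of highest TPM stood at 325300 ± 25300 in M1 and 378600 ± 10700 in M2 (SD, n = 3; log2 difference 0.22, limma adjusted p 0.0709). After scaling this became 1.47 (limma adjusted p 3.26e-08), since M2 libraries were scaled up by their factors of 0.404 to 0.515. Among the 10 most abundant genes, that of rank 10 was lower in M2 under both scalings, at 1844, 1652 and 1807 TPM against 10600, 11320 and 11670 in M1 (log2 difference −2.66, limma adjusted p 9.65e-18, and −1.41 after scaling). That of rank 9 was higher, at 15350, 16430 and 16990 TPM against 4531, 5059 and 5879 (1.66, limma adjusted p 8.09e-13, and 2.91 after scaling). The gene of rank 6 stood at 15770 ± 846 TPM in M2 and 35340 ± 584 in M1, a log2 difference of −1.17 as deposited and 0.08 after scaling (limma adjusted p 0.821). The gene of rank 7 ranged from 0.857 to 11400 TPM among the M1 libraries and from 4133 to 51480 TPM among those of M2, and missed the threshold (limma adjusted p 0.129).

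The share of genes called varied with the level of a gene, and among genes called under both scalings more were lower than higher in M2 in every quartile of level. The need for a call under both scalings itself favoured lower genes. After median-of-ratios scaling alone, the highest quartile held 2156 higher and 998 lower genes. In quartiles of the mean log2 level over the 48 libraries, the share called lower in M2 under both scalings was 8.12% in the lowest, 16.2% in the second, 28.5% in the third and 18.3% in the highest. The share called higher was 2.18%, 1.59%, 1.59% and 5.27%. Median log2 differences from the lowest to the highest quartile were −0.27, −0.68, −1.15 and −0.93 as deposited. After scaling they were −0.13, −0.32, −0.47 and 0.25, so that the most abundant quartile changed sign with the scaling. The other 3 quartiles had negative medians under both scalings.

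The line difference with TGF-β was then set against those of the 2 reference states. Their levels come from other libraries, though all libraries share 1 estimate of the spread per gene. At 0 h, 457 genes were called higher in M2 under both scalings (2.09%) and 1580 lower (7.23%), and at 24 h of SB431542 672 higher (3.07%) and 5017 lower (23%). As deposited, the totals called were 4209 at 0 h (19.3%) and 11909 with SB431542 (54.5%). The count at 0 h was 2424 without M2 replicate 2 of that time and 1681 in a fit of the 0 h groups alone. Of the 581 genes higher with TGF-β, 352 were also higher with SB431542 (60.6% of the 581 and 52.4% of the 672), and 135 were also higher at 0 h (23.2% of the 581 and 29.5% of the 457). Of the 3886 lower genes, 2448 were also lower with SB431542 (63.0%, and 48.8% of the 5017) and 616 at 0 h (15.9%, and 39.0% of the 1580). The line differences correlated across the 21857 genes with r = 0.715 between TGF-β and SB431542 at 24 h and 0.379 between 24 h of TGF-β and 0 h (0.716 and 0.340 after scaling). These are descriptions over genes. Both 24 h states share the low number of detected genes in M2.

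Whether the line difference itself changed was tested by interaction. Against 0 h, limma called 435 genes with a more positive difference at 24 h of TGF-β (1.99%) and 1346 with a more negative one (6.16%) under both scalings. Against SB431542 at 24 h it called fewer, 178 more positive (0.814%) and 276 more negative (1.26%). Among the 581 genes higher in M2, 256 were wider than at 0 h and 79 wider than with SB431542. Among the 3886 lower genes, these numbers were 1062 and 119. Another 30 of the higher and 15 of the lower genes had a narrower difference with TGF-β than with the inhibitor. The 24 h TGF-β difference chose these genes and is a term of both interactions, so the choice favoured wider differences. The interaction with SB431542 rested on the scaling in number, with 466 genes as deposited (2.13%), 1121 after median-of-ratios scaling (5.13%), 896 with quantile normalization and 296 with TPM rescaled over all but the 10 most abundant genes. The interaction with 0 h turned its balance of directions with the scaling. As deposited 446 genes were more positive (2.04%) and 2523 more negative (11.5%), together 13.6%, and after median-of-ratios scaling 2050 were more positive (9.38%) and 1485 more negative (6.79%).

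**Figure D4:**
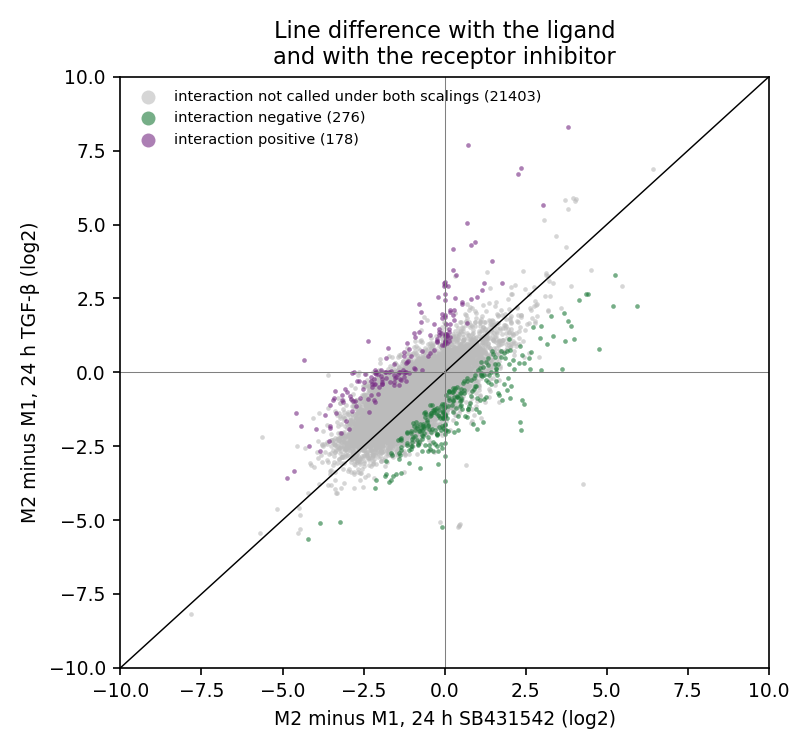
Log2 difference M2 minus M1 of each tested gene at 24 h of SB431542 (x axis) and at 24 h of TGF-β (y axis), from TPM as deposited; the diagonal marks equal differences. The 178 genes with a positive and the 276 with a negative interaction, called under both scalings, lie off a diagonal body of genes.

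A group of 71 genes was higher in M2 with TGF-β and wider there than both at 0 h and with SB431542, and 96 lower genes met the same conditions. These values chose the genes and describe them only. The 71 genes had a median level of 5.08 TPM in M2 with TGF-β, and 0.335 TPM or less in the other 5 groups compared (M1 with TGF-β 0.335, with SB431542 0.104 and at 0 h 0.202; M2 with SB431542 0.281 and at 0 h 0.121). The 96 genes had a median of 14.7 TPM in both lines at 0 h. With TGF-β their median was 8.93 TPM in M1 and 1.53 in M2, and with SB431542 13.1 and 6.39 TPM. So the median of the higher group was low outside M2 with ligand, and that of the lower group was alike in both lines at the start. Its single genes were not all alike at 0 h. Of the 96, 17 were then called lower in M2 (17.7%, against 7.23% of all tested genes) and 12 higher (12.5%, against 2.09%).

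The levels at 2 and 8 h did not enter the differences that chose these genes. Their libraries did enter the filter, the scaling factors and the shared estimate of the spread. At 8 h of TGF-β, 32 of the 71 genes were called higher in M2 (45.1%, against 3.65% of all tested genes) and 43 of the 96 lower (44.8%, against 11.8%), under both scalings. At 8 h none of the 71 was called lower, and 9 of the 96 were called higher (9.38%, against 3.65%). At 2 h of TGF-β, 17 of the 71 were higher (23.9%, against 3.75%) and 4 lower (5.63%, against 11%). The 96 genes were split at 2 h, with 20 lower (20.8%) and 17 higher (17.7%). With SB431542 at 8 h, 6 of the 71 were higher (8.45%, against 2.83%) and 5 lower, and of the 96, 5 were lower (5.21%, against 17.8%) and 12 higher (12.5%). The median line difference of the 71 genes was −0.12 at 0 h, 0.10 at 2 h, 0.45 at 8 h and 1.88 at 24 h of TGF-β. For the 96 genes it was −0.13, −0.14, −0.76 and −2.15. After scaling the 96 genes stood at 0.17, 0.16, −0.33 and −1.40, with a turn of sign between 2 and 8 h.

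The medians of the larger lists were further from 0 at 24 h than at the first time in both arms, as were those of all tested genes. The 24 h TGF-β libraries chose the 2 lists, so their medians at that point are large in part by the choice. The 581 higher genes had a median line difference of 0.13 at 0 h, 0.45 at 2 h, 0.74 at 8 h and 1.15 at 24 h of TGF-β, and of 0.35, 0.11, 0.46 and 0.83 at the same labelled times of SB431542. Called higher under both scalings were 135, 216 and 320 of them at 0, 2 and 8 h of TGF-β, where 2.09%, 3.75% and 3.65% of all tested genes were. These counts were 200, 141, 243 and 352 along the inhibitor arm, where 3.8%, 1.86%, 2.83% and 3.07% of all tested genes were called higher. The 3886 lower genes had medians of −0.58, −0.76, −0.94 and −1.70 with TGF-β and −0.63, −0.99, −1.19 and −1.60 with SB431542. All tested genes had medians of −0.34, −0.39, −0.47 and −0.70 with TGF-β and −0.27, −0.59, −0.62 and −0.78 with SB431542. After scaling the 581 genes stood at 0.45, 0.75, 1.17 and 2.21 with TGF-β and 0.51, 0.66, 1.08 and 1.83 with SB431542. The 3886 genes then stood at −0.27, −0.46, −0.52 and −1.10 with TGF-β and −0.43, −0.46, −0.69 and −0.92 with SB431542. For the earliest SB431542 samples the title gives 0 h and the treatment label 0.5 h.

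**Figure D5:**
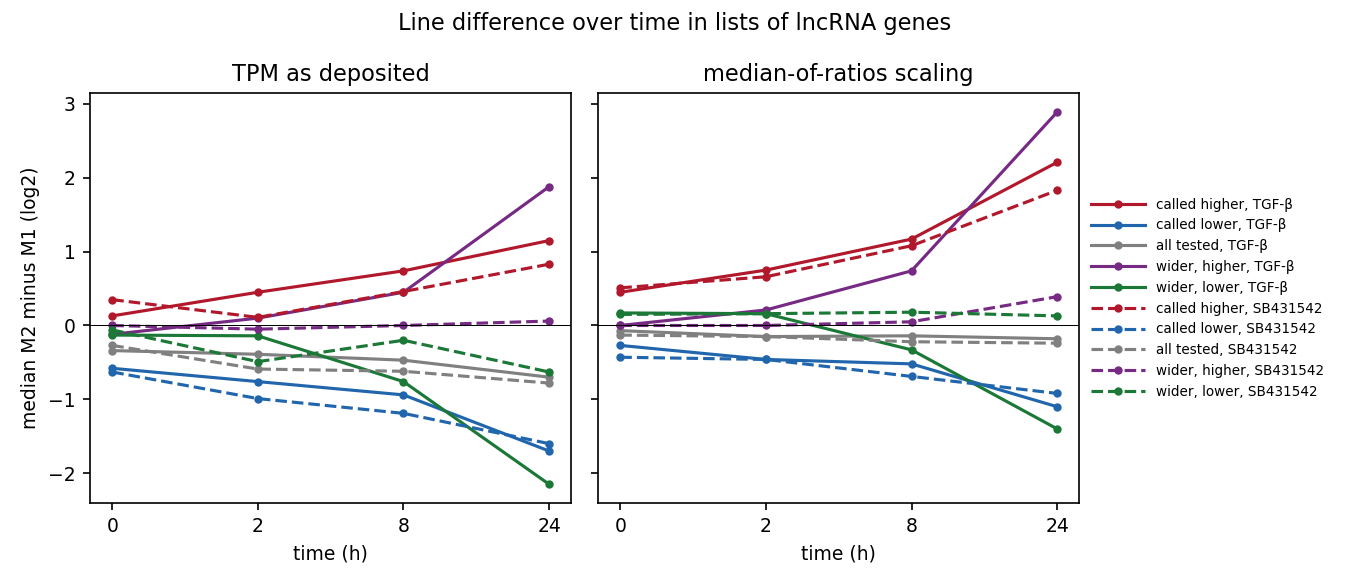
Median log2 difference M2 minus M1 by labelled time in hours (evenly spaced) for genes called higher (581) or lower (3886) at 24 h of TGF-β, for the 71 higher and 96 lower genes that were also wider than at 0 h and with SB431542, and for all tested genes; solid lines are TGF-β, dashed lines SB431542, left as deposited and right after median-of-ratios scaling. The 71 and 96 genes part from their inhibitor values by 8 h, while the larger lists and all tested genes shift in both arms. The values at 24 h of TGF-β were used to choose the 581, 3886, 71 and 96 genes.

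A few genes reversed between states. Of the 581 genes higher at 24 h of TGF-β, 15 were lower in M2 at 0 h (2.58%, against 7.23% of all tested genes). Of the 3886 genes lower at 24 h, 37 were higher at 0 h (0.952%, against 2.09%). Both shares were below those of all tested genes. The 37 genes had a median of 18.6 TPM in M2 and 9.33 in M1 at 0 h, and of 1.89 and 8.77 TPM at 24 h of TGF-β. The 15 genes had medians of 12.6 TPM in M2 and 27.6 in M1 at 0 h, and of 75.9 and 22.8 TPM at 24 h. With SB431542 the medians of the 37 genes were 4.92 TPM in M2 and 14.8 in M1.

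Genes that responded early to the ligand were taken from the 8 h libraries, whose levels do not enter the 24 h line difference. All 48 libraries do share the filter, the scaling factors and 1 estimate of the spread per gene. A gene of small spread is thus more easily called at both times, and the part of this in the shares below was not tested. Between 8 h of TGF-β and 8 h of SB431542, limma called 928 genes higher (4.25%) and 478 lower (2.19%) in M1 under both scalings, and 1337 higher (6.12%) and 228 lower (1.04%) in M2. At 24 h of TGF-β the 421 genes higher at 8 h in both lines held 56 genes higher in M2 (13.3%, against 2.66% of all tested) and 90 lower (21.4%, against 17.8%). Their median line difference was −0.72 as deposited and 0.34 after scaling, against −0.70 and −0.18 for all tested genes. The 506 genes called higher at 8 h in M1 and not in M2 held 167 genes lower in M2 at 24 h (33.0%) and 30 higher (5.93%). The 914 called in M2 and not in M1 held 261 lower (28.6%) and 72 higher (7.88%). Both lists thus held larger shares of called genes in either direction than the tested genes as a whole. The difference between the lines in the 8 h response was itself called for fewer genes by limma's interaction test, 53 more positive in M2 (0.242%) and 52 more negative (0.238%) under both scalings. These held 40 of the 506 genes, all more negative, and 25 of the 914, all more positive. The same 8 h libraries made the lists and the interaction, so these directions were largely fixed by the choice. Most genes of both lists were thus not shown to respond differently in the lines at 8 h.

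The interaction at 24 h was counted in the same lists. Of the 506 genes called higher at 8 h in M1 and not in M2, 53 had a more negative line difference with TGF-β than with SB431542 (10.5%, against 1.26% of all tested) and 2 a more positive one (0.395%, against 0.814%). Of the 914 called in M2 and not in M1, 1 was more negative and 22 more positive (2.41%). The 421 genes higher in both lines had 41 more negative (9.74%) and 26 more positive (6.18%). Of the 351 genes lower at 8 h in M1 and not called in M2, 28 were more positive (7.98%) and 16 more negative (4.56%). The 102 genes lower in M2 and not called in M1 had 2 and 10. Of the 125 genes lower at 8 h in both lines, 12 were more positive (9.60%) and 19 more negative (15.2%). NONHSAG002713.2 was higher at 8 h in M1 (log2 difference 4.91, limma adjusted p 4.07e-14) and not called in M2 (0.84, adjusted p 0.127), and NONHSAG063600.1 was higher in M2 (2.89, adjusted p 8.33e-08) and not called in M1 (0.91, adjusted p 0.105). The 8 h interaction was called for both, at −4.07 (limma adjusted p 5.91e-07) and 1.99 (adjusted p 0.0442).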

How the data were processed

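Total RNA was sequenced from cell lines. The authors deposited TPM values of 96411 NONCODE lncRNA genes in 72 columns, each scaled to a common sum over these genes, as the column sums show. Per the submitters' processing notes, the build was GRCh38 and the tools were StringTie 1.3.6, HISAT2 2.2.0, cutadapt 2.10 and FastQC. Strand and annotation release: not given in the sources used here. Overlapping, antisense or near-identical genes may therefore share reads. No identifier matched the RefSeq or GENCODE tables used (0 matches), so no symbol, position or sequence is printed, and only 2 identifiers per direction.

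The 48 M1 and M2 libraries (16 groups) entered 1 fit on log2(TPM + 0.5) with limma 3.58.1 (eBayes with trend) in R 4.3.3. Tests were two-sided with Benjamini-Hochberg adjustment over 21857 genes. Median-of-ratios factors came from 10514 genes above 0 in all 48 libraries. The members, lists and tests were chosen with earlier results of these data known. Named genes were called under both scalings with non-overlapping lines, above 0 TPM in all 6 libraries and at least 1 TPM in the higher line. They were ranked by the difference, or by the interaction with SB431542 among genes called in both interactions; the second higher gene is the next of that rank, since the first was already named. The design text calls the triplicates biological; if some shared a culture, the p-values cover the spread of the samples alone. No 2 columns were identical. That text counts 36 samples where the labels hold 72.

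On simulated tables of the 24 h TGF-β comparison (21857 genes), the fit called 84.8% of 66 genes given a log2 change of 2. It called 35.8% of 67 at a change of 1 and 4.48% of 67 at 0.5, and made 8 false calls. Only genes with a mean of 1 TPM or more were changed, and no other gene differed between the lines. The data hold many more called genes and a shift with the scaling, so these rates do not carry over to them. Alternatives tried were pseudocounts, filters, scalings, a replicate block, robust moderation, fewer groups and leaving out each library.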

Additional observations from a re-analysis of the deposited data

Results flagged for a closer look

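The line difference at 24 h of TGF-β differed from that at 0 h for 2969 genes and from that at 24 h of SB431542 for 466 genes, by limma's interaction test on TPM as deposited. Among the named genes, NONHSAG063600.1 differed by 7.16 against 0 h and by 4.49 against SB431542 on the log2 scale. NONHSAG107886.1 differed by 5.76 and 4.37 in the same contrasts. NONHSAG002713.2 differed by −2.64 and −5.15. Passing both interaction tests was a condition for naming NONHSAG107886.1 and NONHSAG002713.2. NONHSAG014890.2 did not pass either interaction test. With 3 libraries per group no library was tested as standing apart from its group.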

How the results depend on the processing

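Over 10 other settings the number of genes called between the lines at 24 h of TGF-β ranged from 5531 (quantile normalization, the only one to move it by over 1.5 times) to 11134. Quantile normalization gave 6286 genes at 24 h of SB431542 and 896 for the interaction with SB431542. That interaction gave 1121 genes after median-of-ratios scaling and 296 with TPM rescaled over all but the 10 most abundant genes, which gave 1760 for the interaction with 0 h. A fit restricted to the groups compared called 1681 genes at 0 h; the cause of these moves was not tested. Leaving out 1 library gave 8399 to 10101 genes at 24 h of TGF-β, 10458 to 10890 with SB431542, 2150 to 3301 and 322 to 432 for the interactions with 0 h and SB431542, and 2424 (without M2 0 h replicate 2) to 4152 at 0 h. The difference in detected genes, −5691, was −4609 at a threshold of 1 TPM, −5010 at 0.1 TPM and −6220 to −5279 with a library left out. Whether the replicate numbers pair the samples is unknown. At 24 h of TGF-β, deviations of same-numbered libraries of the 2 lines correlated with r of 0.037, 0.012 and 0.119. Those of differently numbered libraries correlated with r of −0.095 to 0.074, and these 6 libraries are too few to settle it. The replicate block gave 10532 genes against 10502. The line differences of the 4 named genes at 24 h of TGF-β kept sign and call under all settings and left-out libraries. These genes were chosen for large differences called under both scalings, so this was largely fixed by the choice. The interaction of NONHSAG002713.2 with 0 h lost its call under 2 settings. That of NONHSAG063600.1 with SB431542 lost it under 1. None of the 10 differences and interactions recomputed for the named genes changed sign, while the balance of directions in the interaction with 0 h turned with median-of-ratios scaling (446 more positive and 2523 more negative genes as deposited, 2050 and 1485 scaled). TPM without counts gives no detection limit.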
